A study of Mus musculus with 4 samples.

Results

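The comparison set cells of untreated adult mouse back skin from a library labelled Ovol1 null against cells of a control library. Its members were the cells with the library suffix 1 (control) or 3 (labelled Ovol1 null) with UMIs (unique molecular identifiers, each counting 1 captured RNA) of at least 200 genes and no more than 10% of their UMIs from mitochondrial genes. They numbered 11478 of the 22819 cells of the series, 6186 from the control library and 5292 from the labelled-null library. The mice were CD1, an outbred strain. The labels give an age of 7 to 8 weeks for the treated animals, and the same age was taken for the untreated animals. The labels do not say how the Ovol1 allele was made, which part of the gene it removes, the sex of the mice, how many animals a library pooled, or the gate of the sort that preceded capture. The other libraries of the study came from control and labelled-null skin after a single dose of 62.5 mg of cream with 5% imiquimod, an agonist of Toll-like receptor 7 that evokes psoriasis-like inflammation, and are used below for side-by-side values. Each condition had 1 library, so no difference below has a replicate check. All intervals are exact 95% intervals that cover counting error only.

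Ovol1 encodes a zinc-finger transcriptional repressor of the OVO family that acts in epithelia, where keratinocytes stop dividing as they leave the basal layer and differentiate into spinous, granular and cornified cells. Basal cells are held to the basement membrane by integrins and Col17a1 and carry Krt5, Krt14 and Krt15. Suprabasal cells switch to Krt1 and Krt10 and then load the proteins and lipids of the barrier. Ovol2, a relative, and Zeb1 and Zeb2, transcription factors of the mesenchymal state, are often studied beside it, and Myc is a known repressed target of OVO proteins.

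Cells were put into 3 classes by the UMIs of 9 genes. Epithelial cells had more UMIs of Krt5, Krt14, Krt1 and Krt10 together than of Col1a1, Col1a2, Col3a1 and Dcn, and none of Ptprc. Fibroblasts had the reverse. The third class held every cell with at least 1 UMI of Ptprc, the CD45 gene of blood-derived cells. Markers outside the rule were checked in each class. The 8 epithelial markers summed to 27488 and 26366 CPM (the UMIs of a gene per 1000000 UMIs of the class in a library) in epithelial cells of the control and labelled-null libraries, against 1420 and 3231 CPM in fibroblasts. The 7 fibroblast markers summed to 7822 and 7152 CPM in fibroblasts and to 179 and 312 CPM in epithelial cells. The 8 leukocyte markers summed to 22966 and 23943 CPM in Ptprc cells, which also held 1991 and 1131 CPM of the fibroblast markers. Cells of the kept barcodes had a median of 5766 UMIs in the control library and 5739 in the labelled-null library, and 40 barcodes occurred in both. Between 117 and 176 epithelial cells and between 68 and 134 fibroblasts of a library lay within 2-fold of the cut between the keratin and collagen sums.

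Ovol1 itself (chr19:5549136-5560646, minus strand, GRCm38) was not lower in the library labelled Ovol1 null. In epithelial cells it stood at 26.5 CPM (interval 23.5 to 29.8, 282 UMIs) in the control library and at 38.7 CPM (35.8 to 41.8, 649 UMIs) in the labelled-null library, a ratio of 1.46 (1.27 to 1.68). The labelled-null level was the higher of the 2 both in cells on the basal side of the keratin sums, 22.7 against 16.0 CPM, and on the suprabasal side, 62.4 against 45.8 CPM. In the imiquimod libraries the levels were 35.4 CPM in control and 90.1 CPM in labelled-null epithelial cells. In fibroblasts Ovol1 stood at 2.45 and 8.59 CPM, and in Ptprc cells 1 and 11 UMIs were counted. The library tags lie at the 3′ end of the RNA. A tag outside the deleted part of a gene says nothing about the genotype, so these values do not test the label. The wording "labelled Ovol1 null", or "labelled-null" for short, is kept throughout for that reason, and every direction below is one between libraries as labelled.

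Of 161 genes measured in epithelial cells within 5 Mb of it, 9 (5.59%) differed by the rule given below, against 5.77% of genes on other chromosomes.

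**Figure D1:**
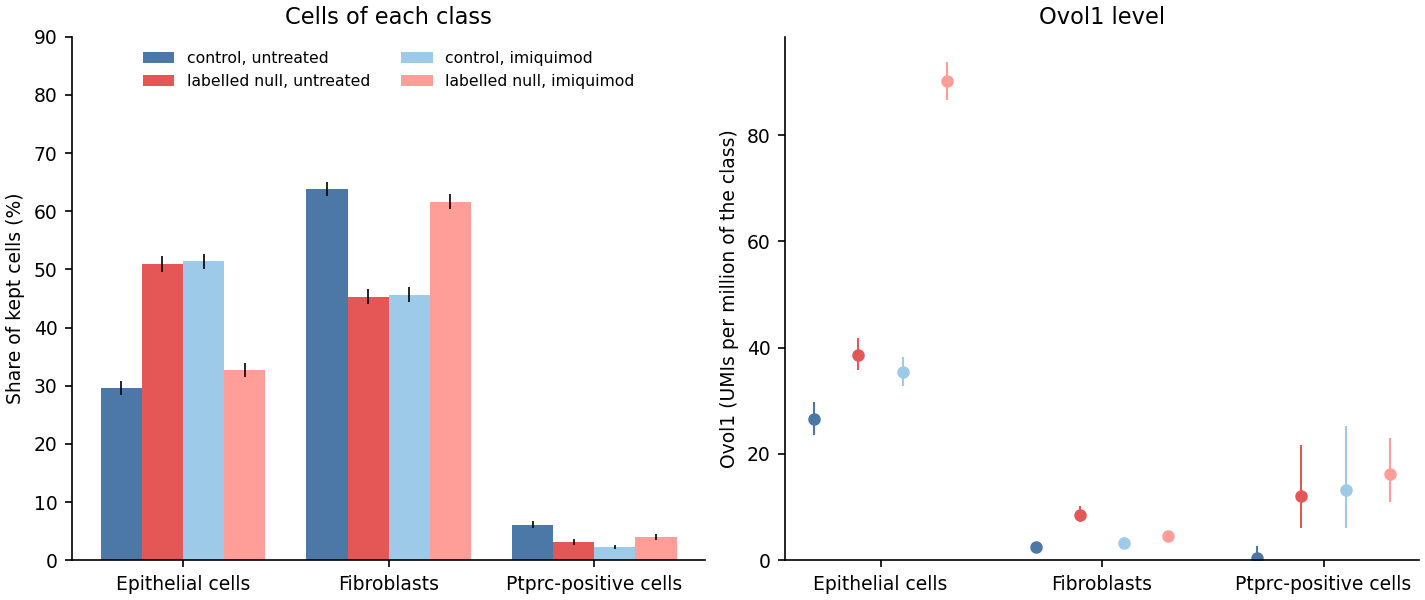
Left: share of kept cells in each class in the 4 libraries, with exact binomial intervals; the labelled-null untreated and control imiquimod libraries have similar epithelial shares, as do the control untreated and labelled-null imiquimod libraries. Right: Ovol1 CPM in the class with exact Poisson intervals; in epithelial cells both labelled-null libraries lie above the control library of the same treatment.

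The other members of the OVO circuit differed little in epithelial cells. Ovol2 stood at 18.2 CPM in the control and 22.8 CPM in the labelled-null library, a ratio of 1.25 (1.05 to 1.49). Myc stood at 47.5 and 44.3 CPM. Zeb1 had 9 and 13 UMIs in epithelial cells, too few to measure, and Ovol3 had none. Zeb2 was 2.37-fold higher in the labelled-null library (1.79 to 4.23 CPM), but its level in epithelial cells was below 50% of that in another class, and how much RNA of other cells these UMIs hold was not tested. Other epithelial transcription factors on the same list were near level, with Trp63, the p63 gene, at 451 and 423 CPM and Grhl1 at 31.7 and 33.7 CPM.

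Epithelial cells made up 29.6% (28.5 to 30.8) of kept cells in the control library and 50.9% (49.5 to 52.2) in the labelled-null library. Fibroblasts made up 63.9% and 45.3%, and Ptprc cells 6.03% and 3.12%. After imiquimod the order was the other way, with 51.4% epithelial cells in the control library and 32.7% in the labelled-null library. Shares follow the sort and the capture of cells and were not read as shares of the skin. Within the epithelial class the basal side held 69.6% of control and 64.5% of labelled-null cells.

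A gene was measured in a class when it had at least 50 UMIs over both libraries, and it was counted as different when its CPM ratio was at least 1.5 in either direction with an interval on one side of 1. In epithelial cells 365 of 10976 genes were higher (3.33%) and 277 lower (2.52%) in the labelled-null library, with TMM scaling 431 and 210. In fibroblasts 860 of 12277 were higher (7.00%) and 332 lower (2.70%). In Ptprc cells 256 of 5668 were higher (4.52%) and 429 lower (7.57%). These shares are the background against which counts of genes in a list are read. Both directions together came to 5.85%, 9.71% and 12.1% of genes.

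Part of these differences lay in genes of the other classes. Among 598 genes at least 4-fold more abundant in epithelial cells than in fibroblasts, 345 were higher and 4 lower in labelled-null fibroblasts, where the epithelial markers summed to 3231 CPM against 1420 CPM in the control library. Among 228 genes at least 4-fold more abundant in fibroblasts than in Ptprc cells, 165 were lower and 1 higher in labelled-null Ptprc cells. The control library held more fibroblasts and the labelled-null library more epithelial cells, and the part of cell-free RNA or mixed barcodes in them was not tested. Where fibroblasts had to hold at least 4 times more collagen than keratin UMIs, 517 genes were higher and 594 lower. The genes described below are therefore, unless stated, those whose level in the class was at least 50% of that in each other class of the same library, called the class's own genes. Of these, 201 of 8850 were higher and 198 lower in epithelial cells, 356 and 268 of 9749 in fibroblasts, and 214 and 206 of 4970 in Ptprc cells.

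**Figure D2:**
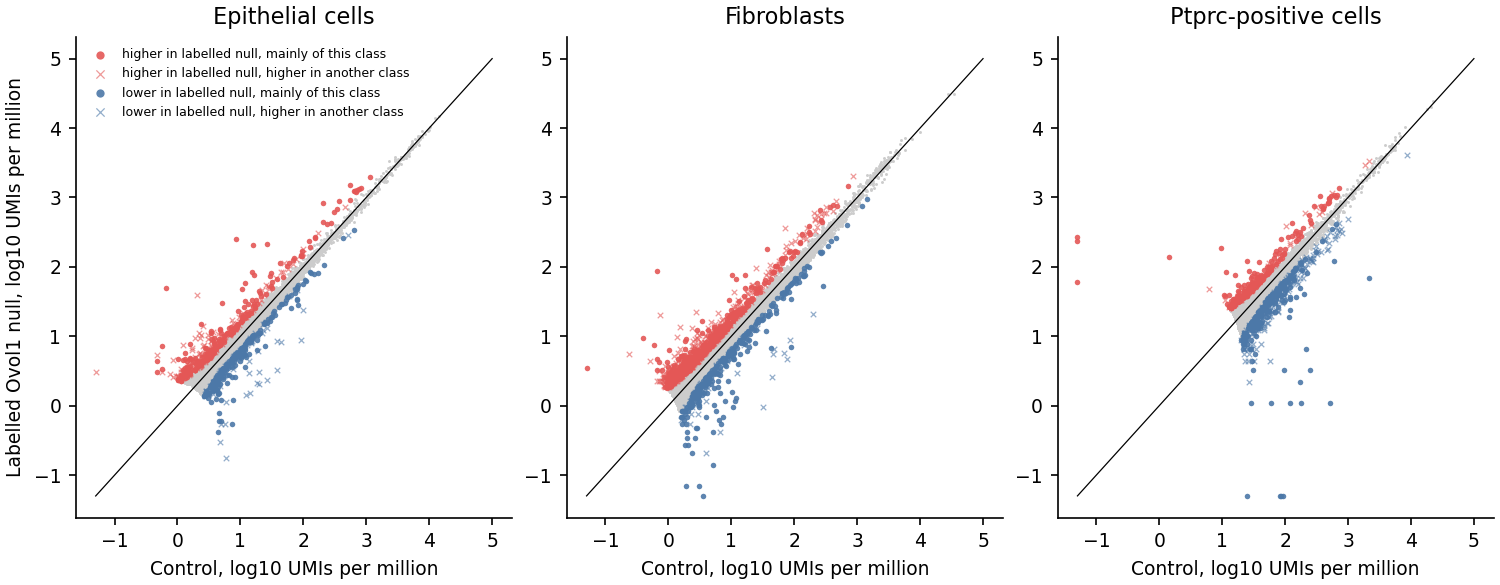
Each point is a gene with at least 50 UMIs over both untreated libraries, at its log10 CPM in the control (x) and labelled-null (y) library, with genes at 0 drawn at the edge; red and blue mark genes higher and lower by the rule, circles the class's own genes and crosses genes with less than 50% of the level in another class. Most genes lie along the diagonal, and crosses gather above it in fibroblasts and below it in Ptprc cells.

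The main programmes of the epidermis were close to level between the untreated libraries. None of 13 measured genes of basal adhesion differed. Krt15, a basal keratin, stood at 6913 CPM in the control and 5682 CPM in the labelled-null library, and Col17a1, the hemidesmosomal collagen, at 519 and 539 CPM. Of 18 spinous and cornified envelope genes, 2 were higher and 1 lower. Krtdap and Sbsn, secreted products of spinous cells, were near level at 5124 and 5577 CPM and at 1232 and 1275 CPM, and Krt77 stood at 612 and 598 CPM. The 3 genes of the list that differed were low ones. Tgm3, a transglutaminase of the cornified envelope, went from 3.86 to 9.48 CPM (2.46-fold, 1.73 to 3.55), Krt80 from 2.07 to 4.11 CPM, and Lor, which encodes the envelope protein loricrin, from 11.004 to 7.09 CPM (1.55-fold lower).

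Keratins that mark activated epidermis were low in both libraries. Krt6a stood at 6.21 and 7.87 CPM and Krt16 at 8.18 and 7.75 CPM, without a difference by the rule, whereas in the imiquimod libraries Krt16 stood at 74.0 CPM in control and 1446 CPM in labelled-null epithelial cells. Krt17, which hair follicles also carry, stood at 1584 and 1331 CPM. Both untreated libraries had less Krt6a and Krt16 in epithelial cells than either imiquimod library.

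Few genes of dividing cells differed in epithelial cells. Of 23 genes of the G2 and M phases 1 was lower and none higher, with a median log2 ratio of -0.20 against -0.05 over all genes measured in epithelial cells. The gene that differed was Kif20a, a kinesin of cytokinesis, at 8.37 and 4.89 CPM (1.71-fold lower, 1.25 to 2.34). Mki67, the proliferation marker, stood at 27.4 and 18.5 CPM and Top2a at 57.1 and 43.8 CPM. Of 16 genes of the S phase 1 was lower, Ung, which removes uracil from DNA, at 11.8 and 7.45 CPM.

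Of 22 genes of junctions and desmosomes 2 were lower and none higher. Cldn4, a claudin of tight junctions, went from 15.0 to 8.29 CPM (1.80-fold lower, 1.43 to 2.28), and Gjb6, the connexin 30 gene, from 3.67 to 1.67 CPM. The abundant desmosomal genes were level, with Dsp at 544 and 540 CPM and Perp at 2942 and 2825 CPM. Of 18 barrier lipid genes 1 was lower, Elovl4, which elongates very long chain fatty acids for ceramides, at 106 and 64.9 CPM. That difference rested on 1 control cell, which held 36.1% of the control UMIs of Elovl4, and was not called without the top cells. Of 21 cholesterol and fatty acid synthesis genes 1 was lower, Lss, which cyclises squalene epoxide, at 8.28 and 5.30 CPM, and the median log2 ratio was -0.29. Of 29 immediate early and heat shock genes 1 was lower, Egr2, an early growth response factor, at 35.7 and 20.2 CPM (1.77-fold lower, 1.52 to 2.05), and the median was -0.32.

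Own genes were ranked by the bound of the interval nearest to a ratio of 1, and Baiap2l1 came first in epithelial cells (chr5:144264526-144358112, minus strand). It encodes an adaptor that bends membranes and links them to actin, and it stood at 16.0 CPM (170 UMIs) in the control library and at 206 CPM (3448 UMIs) in the labelled-null library, 12.9-fold higher (11.02 to 15.1). Its UMIs were spread over many cells. After each cell was thinned to 1000 UMIs, 1.91% of control and 18.2% of labelled-null epithelial cells held a UMI of it, against 0.0253% and 2.17% of fibroblasts. Without thinning the shares were 8.90% and 61.4% of epithelial cells and 0.481% and 8.59% of fibroblasts, at median depths of 5129 and 5732 UMIs in epithelial cells and 6346 and 5895 in fibroblasts. The ratio was 12.1 on the basal and 14.2 on the suprabasal side. Both imiquimod libraries were low, with 13.9 CPM in control and 9.44 CPM in labelled-null epithelial cells, so that 1 of the 4 libraries stood apart.

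The other own genes named from the first 12 were a mixed set. Stra6, the membrane receptor that takes up retinol, had 6 UMIs in the control and 121 in the labelled-null library (0.564 and 7.21 CPM, 12.8-fold, 5.70 to 35.5), mostly from the basal side, where it stood at 0.873 and 10.1 CPM against 0 and 2.97 CPM on the suprabasal side. Hist1h2ap, a replication-dependent histone H2A gene, went from 15.1 to 83.9 CPM (5.54-fold, 4.70 to 6.56). Tmem181a, a membrane protein gene, went from 10.4 to 47.8 CPM (4.58-fold). AY036118, a long noncoding RNA of chromosome 17, went from 16.2 to 75.5 CPM (4.67-fold). They also held Dancr and RP23-152B12.3, both noncoding, Slc25a35, a mitochondrial carrier at 3.39 and 11.9 CPM, H2-Q10, a class Ib histocompatibility gene at 3.39 and 11.1 CPM, BC100530, and the chemokine gene Ccl1. Ccl1 had 68.5% of its 73 labelled-null UMIs in 1 cell and had under 50 UMIs left over both libraries without the top cells.

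BC100530 and Stfa3 belong to the stefin A genes, inhibitors of cysteine proteases that keratinocytes and neutrophils make in inflamed skin. BC100530 went from 12.04 to 58.2 CPM (4.84-fold, 4.02 to 5.86) and Stfa3 from 59.2 to 112 CPM (1.90-fold, 1.73 to 2.08), so that 2 of 3 measured members were higher. Both were higher on the basal and the suprabasal side. These levels were small beside those after imiquimod, where BC100530 stood at 344 CPM in control and 9592 CPM in labelled-null epithelial cells.

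Among the ranked genes lower in the labelled-null library, 3 had over 1000 UMIs, Hebp2, Npc1 and Akr1c18. Hebp2, which encodes a haem-binding protein, stood at 82.2 CPM in the control and 28.1 CPM in the labelled-null library (2.92-fold lower, 2.61 to 3.27), with UMIs in 554 and 379 cells, and was lower on both sides of the epithelium, 54.3 against 15.7 CPM and 133 against 46.6 CPM. Npc1, which exports cholesterol from lysosomes, went from 63.2 to 25.4 CPM. Akr1c18, a progesterone-metabolising reductase, went from 80.3 to 33.7 CPM (2.39-fold lower, 2.14 to 2.66), and its neighbour on chromosome 13, Akr1c19, from 4.51 to 0.596 CPM (7.57-fold lower, 3.78 to 16.8). Under imiquimod both stood the other way, at 11.1 and 158 CPM and at 0.0558 and 3.16 CPM.

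Xlr3b and Xlr3a, related genes of a lymphocyte-regulated family on the X chromosome, went from 77 to 9 UMIs (13.5-fold lower, 6.75 to 30.6) and from 52 to 10 UMIs (8.21-fold lower). Reads of such near-identical copies can be split between them, so their separate values are uncertain. Tmprss11g, a serine protease gene, went from 46 to 7 UMIs. Tekt2, which encodes a tektin of cilia, went from 8.18 to 2.62 CPM and Atp6v1b1, a proton pump subunit, from 4.89 to 1.19 CPM. The noncoding RP23-299D2.2 went from 4.51 to 0.775 CPM. Scd3, a desaturase of sebaceous cells, and Lcn2, the antimicrobial lipocalin, completed the 12, with 77.8% and 49.0% of their control UMIs in 1 cell each.

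**Figure D3:**
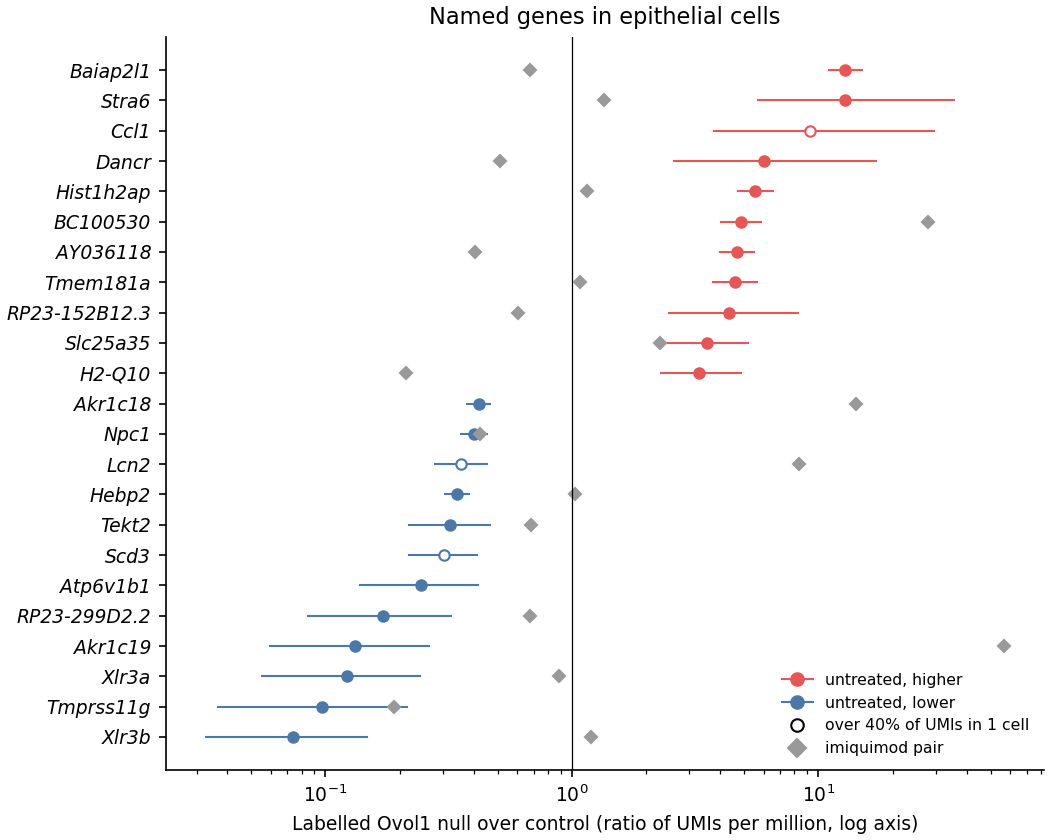
Ratio of labelled-null over control for 23 of the 24 ranked genes in untreated epithelial cells (circles, with exact intervals, on a log axis) and for the same genes in the imiquimod libraries (grey diamonds, where measured). Akr1c18, Akr1c19 and Lcn2 lie left of 1 untreated and right of 1 under imiquimod, and open circles mark genes with over 40% of the UMIs of the higher library in 1 cell.

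Of 6 measured antimicrobial genes 3 were lower and 1 higher in the untreated labelled-null library. Defb1, a defensin gene, went from 130 to 81.1 CPM (1.61-fold lower, 1.49 to 1.73) with UMIs in many cells, while S100a8, an alarmin subunit, had only 43 and 21 UMIs. Lcn2 is given above, and Saa3 went from 0 to 52 UMIs, but its level in epithelial cells was below 50% of that in fibroblasts.

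Of 14 upper hair follicle genes 1 was higher, Klk10, a kallikrein protease, at 3.95 and 7.39 CPM, and 1 lower, Krt23, at 4.23 and 1.67 CPM. Of 8 sebaceous genes 1 was higher, Fabp4, and 2 were lower, Cidea, of lipid droplets, and Elovl3, a fatty acid elongase, at 15.8 and 10.4 CPM and at 8.56 and 5.36 CPM. Fabp4 was no own gene of the class, and Cidea and Elovl3 stood the other way where epithelial cells had to hold at least 4 times more keratin than collagen UMIs. The marker sum of sebocytes stood at 286 and 215 CPM, and its part in these values was not tested. Of 18 Wnt and BMP regulators 3 were lower, among them Rspo3, which encodes an R-spondin that strengthens Wnt signalling, at 19.2 and 10.3 CPM (1.86-fold lower, 1.51 to 2.29).

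Of 15 genes of class I antigen presentation 2 were lower. H2-Q7, a class Ib gene, went from 212 to 108 CPM (1.97-fold lower, 1.85 to 2.09) and H2-T22 from 111 to 63.4 CPM (1.75-fold lower, 1.61 to 1.90). B2m, the invariant light chain, stood at 2860 and 2590.5 CPM and Tap1, the peptide transporter, at 66.5 and 76.5 CPM. H2 genes are near copies of each other, so their separate values are uncertain.

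All 4 haemoglobin genes were higher in labelled-null epithelial cells, mostly from 1 cell. Of the 3526 UMIs of Hba-a1, 92.1% lay in 1 cell, and without the top cells its ratio was 0.636.

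Of 15 measured chemokine genes 5 were higher and 1 lower in labelled-null epithelial cells, and 3 of the 15 were own genes of the class. Ccl21a went from 22 to 652 UMIs with 51.2% of them in 1 cell, and Ccl19 from 20 to 161 UMIs; both stood below 50% of their level in fibroblasts. Ccl27a, the keratinocyte chemokine that draws T cells to skin, was the abundant one, at 2308 and 3343 CPM (1.45-fold, 1.43 to 1.47), just under the fold of 1.5. The symbols Ccl19 and Ccl27a each belong to more than 1 gene entry, and the values are of 1 entry. Of 26 matrix glycoprotein and proteoglycan genes 10 were higher and none lower in labelled-null epithelial cells, and only 4 of the 26 were own genes of the class.

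Of 13 respiratory chain genes of the mitochondrial genome 4 were higher and none lower. The 3 with the firmest ratios were mt-Atp8 at 55.9 and 103 CPM (1.85-fold), mt-Nd3 at 277 and 430 CPM (1.55-fold) and mt-Nd4l at 95.5 and 144 CPM. These 3 were not particular to epithelial cells, since they were also higher by the rule in fibroblasts and Ptprc cells. Under imiquimod they were lower in labelled-null epithelial cells, with ratios of 0.408, 0.550 and 0.362. The median share of mitochondrial UMIs per epithelial cell was 3.24% in the control and 3.73% in the labelled-null library. Pgk1, a glycolytic enzyme gene, was 2.19-fold higher (1.81 to 2.66) at 13.2 and 28.8 CPM, while the abundant Ldha stood at 237 and 236 CPM. Pgk1 was also higher in fibroblasts (2.32-fold) and Ptprc cells (2.24-fold).

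On the basal side 307 of 10276 genes were higher (2.99%) and 255 lower (2.48%), and on the suprabasal side 313 of 8535 (3.67%) and 242 (2.84%). Of the genes higher in the whole class, 194 were measured on both sides, and 116 of them were higher on each. Of those lower, 119 were measured on both sides, and 51 were lower on each. Another 38 of the higher genes passed on the basal side alone and 35 on the suprabasal side alone, and whether they differ between the sides was not tested.

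OVO proteins bind DNA at the letters CCGTTA. That run, or its reverse complement TAACGG, was searched in RefSeq promoter windows of GRCm38.p6 that run from 250 bases before to 50 after the start of a gene. It occurred in at least 1 window of 850 of 27025 genes with a window (3.15%) and of 378 of 8381 such genes measured in epithelial cells (4.51%). Among genes higher in labelled-null epithelial cells 4 of 214 with a window held it (1.87%), and among those lower 5 of 197 (2.54%). A match is only these letters in this window. The windows of the own genes that held it are shown so that the letters can be read in context, 30 bases or fewer around the match, written 5′ to 3′ in the direction of the gene with the match in capitals. They lie at chr12:75669736-75669765 for Wdr89, chrX:101420002-101420031 for Zmym3, chr14:121505450-121505479 for Slc15a1, chr13:74639603-74639622 for Erap1 and chr15:99651607-99651629 for Racgap1.
Wdr89: tcccagggacttCCGTTAacctgacctaga
Zmym3: cttttcctcaacTAACGGggccccgggcgg
Slc15a1: cctacgcccaccCCGTTActtgggacagct
Erap1: ttCCGTTAgtgaagttagca
Racgap1: ggttttacactgCCGTTAgtgag
Of these genes, Wdr89, a WD-repeat gene, was higher at 723 and 1264 CPM (1.75-fold, 1.70 to 1.79). The other 4 were lower in epithelial cells. Racgap1, a GTPase-activating protein of cytokinesis, stood at 20.1 and 12.28 CPM (1.64-fold lower, 1.35 to 1.99) and Erap1, the aminopeptidase that trims peptides for class I molecules, at 10.4 and 6.50 CPM. Slc15a1, a peptide transporter, stood at 12.8 and 8.52 CPM and Zmym3, a chromatin factor, at 7.71 and 4.95 CPM. These 5 genes were picked after their values were seen.

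In fibroblasts some collagen processing genes were lower in the labelled-null library, while the collagen genes did not pass the rule. None of 17 measured collagen genes outside the class rule was called, with a median log2 ratio of -0.23 against 0.03 over all genes measured in fibroblasts. Col5a1 stood at 375 and 273 CPM and Col6a2 at 294 and 216 CPM. Of 17 collagen processing genes 4 were lower and none higher. Pycr1, which makes proline, went from 49.1 to 27.2 CPM (1.80-fold lower, 1.61 to 2.03), Pcolce, which enhances the cleavage of procollagen, from 1174 to 749 CPM (1.57-fold lower, 1.53 to 1.60), and P4ha2, a prolyl hydroxylase subunit, from 254 to 166 CPM (1.53-fold lower, 1.46 to 1.60). Serpinh1, the collagen chaperone, stood at 2632 and 1814 CPM (1.45-fold lower), just within the fold. In the imiquimod libraries Pycr1 stood at 0.850 and 2.03 CPM and Pcolce at 325 and 400 CPM.

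Of 35 matrix glycoprotein and proteoglycan genes 2 were lower and none higher. Ogn, which encodes the proteoglycan osteoglycin, went from 149 to 75.4 CPM (1.98-fold lower, 1.85 to 2.12), and Thbs4, a thrombospondin of tendon and muscle, from 133 to 2 UMIs (37.7-fold lower, 10.2 to 315). Lum, an abundant proteoglycan gene, was near level at 4684 and 4349 CPM. Of 15 metalloproteinases and inhibitors 1 was lower, Adam12, at 5.61 and 3.44 CPM.

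Of 27 measured genes that mark fibroblast subsets 4 were lower and 1 higher. Crabp1, a retinoic acid binding protein of the dermal papilla and dermal sheath region, went from 144 to 73.2 CPM (1.96-fold lower, 1.83 to 2.11) and had UMIs in 500 control and 203 labelled-null fibroblasts. Once cells with endothelial, mural or Schwann cell markers were left out it stood at 95.9 and 77.2 CPM, a ratio of 0.805, and was not called. Igfbp2, an insulin-like growth factor binding protein, went from 23.1 to 12.4 CPM (1.87-fold lower). Dact2, a Wnt pathway modulator, was the one that was higher, at 1.75 and 5.36 CPM (3.06-fold, 2.09 to 4.51). Of 26 Wnt and BMP regulators 1 was higher, Sfrp5, a secreted Wnt antagonist, at 1.56 and 5.22 CPM, and 2 were lower. Sfrp5 fell under the minimum of 50 UMIs once those cells were left out. Cdkn2a, a cell cycle inhibitor, went from 10.5 to 5.02 CPM (2.098-fold lower, 1.61 to 2.76), 1 of 9 growth arrest genes.

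Of 26 inflammatory genes measured in fibroblasts 3 were higher and 2 lower. C3, the central complement component, went from 83.1 to 164 CPM (1.98-fold, 1.86 to 2.096) with UMIs in 821 and 836 cells, and Saa3, an acute phase protein, from 10.4 to 76.9 CPM (7.36-fold, 6.44 to 8.44) with 34.7% and 34.3% of its UMIs in 1 cell of each library. Il6 went from 88.4 to 57.0 CPM (1.55-fold lower, 1.43 to 1.68) and Ptx3, a soluble pattern receptor, from 6.70 to 3.16 CPM. Under imiquimod C3 stood the other way, at 321 and 208 CPM, while Saa3 stood at 1504 and 17084 CPM.

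Of 22 chemokine genes 7 were higher and 1 lower, and 10 of the 22 were own genes of fibroblasts. Ccl19, a ligand of CCR7 that guides dendritic cells and T cells, was the most abundant and went from 709 to 1456 CPM (2.05-fold, 2.01 to 2.096). These values are of 1 of the entries with that symbol. Under imiquimod Ccl19 stood the other way, at 2156 and 1099 CPM (ratio 0.510). Cxcl10, an interferon-induced chemokine, went from 20.4 to 34.3 CPM. Ccl21a, the other CCR7 ligand, went from 383 to 239 CPM (1.60-fold lower), with UMIs in only 116 and 86 cells, and it was 1.82-fold higher once cells with endothelial, mural or Schwann cell markers were left out. Of 22 interferon-stimulated genes none was higher and 2 were lower, Ifi27l2a at 18.5 and 8.18 CPM and Ifit2 at 3.27 and 2.06 CPM. Ifi27l2a was no own gene of fibroblasts. It stood at 225 and 80.6 CPM in Ptprc cells and was also lower in epithelial cells, at 26.4 and 13.1 CPM.

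Among the ranked own genes, Pla2g2e, a secreted phospholipase, went from 16.8 to 75.8 CPM (4.52-fold, 4.04 to 5.07) with UMIs in 353 and 659 fibroblasts, and Gbp4, an interferon-inducible GTPase gene, from 3.43 to 16.5 CPM (4.81-fold, 3.75 to 6.21). Both were higher under imiquimod as well, Pla2g2e at 183 and 706 CPM and Gbp4 at 20.1 and 31.5 CPM. AY036118 and Wdr27 were also higher. The other higher genes rested on few cells. Jchain, the joining chain of plasma cell immunoglobulins, had 58.1% of its 1248 labelled-null UMIs in 1 cell, and Retnla, Cfd, Edn2 and Rbp7 had 57.5% to 89.9% there. Rbp7 fell under the minimum of 50 UMIs once cells with endothelial, mural or Schwann cell markers were left out, with a ratio of 1.41 in place of 4.82.

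Of the ranked lower genes, Padi4 and Padi3, neighbouring genes of arginine deiminases on chromosome 4, stood out by their spread over cells. Padi4 had 92 UMIs in 84 control fibroblasts and none in labelled-null fibroblasts. It was 17.4-fold lower against a floor of 3 counts in the labelled-null library, and the bound of its interval was 13.9-fold. The absence was not particular to fibroblasts, since Padi4 stood at 4.61 and 0 CPM in epithelial cells and at 4.78 and 0 CPM in Ptprc cells. In fibroblasts under imiquimod it stood at 2.21 CPM in control and 0 CPM in labelled-null cells, with too few UMIs to be measured. Padi3 had 80 UMIs in 77 control cells and 1 in the labelled-null library (45.4-fold lower, 7.91 to 1814). Gng4, a G protein subunit gene, went from 11.3 to 1.17 CPM (9.71-fold lower, 5.96 to 16.9) with UMIs in 255 and 16 cells. Thbs4 is given above. The other 6, Tnnc2, Pgam2, Atp2a1, Apobec2, Cox6a2 and H19, are known for their expression in skeletal muscle. Summed over 4 muscle markers, none of them at 0, fibroblasts of the control library held 371 CPM and those of the labelled-null library 39.2 CPM, and the part of muscle RNA in these 6 genes was not tested.

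Several epithelial lists held more higher than lower genes in labelled-null fibroblasts, where 7.00% of all genes were higher. Of 16 junction genes 11 were higher, of 14 spinous and envelope genes 9 and of 13 basal adhesion genes 6, with none lower, and 4, 3 and 3 of those measured were own genes of fibroblasts. Of 17 barrier lipid genes 4 were higher, of 9 sebaceous genes 3, of 6 alarmins and antimicrobial proteins 2 and of 11 bulge and outer root sheath genes 2. Of 13 upper hair follicle genes 2 were higher and 1 lower. In these lists, in that order, 13, 8, 3, 6 and 5 of those measured were own genes of fibroblasts. Of 2 activation keratins none was higher and 1 lower, Krt16, an own gene, at 5.81 and 0.824 CPM (7.04-fold lower, 3.91 to 13.9). Outside the epithelial lists, 14 of 17 genes of the G2 and M phases were higher, none of them an own gene of fibroblasts.

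Ptprc cells were the smallest class, with 373 control and 165 labelled-null cells, of which 53.9% and 55.8% held a UMI of Cd3d, Cd3e or Cd3g. Over all genes measured in this class 4.52% were higher and 7.57% lower, the background for the lists that follow. Of 20 measured T cell genes 2 were higher and 8 lower. Cd3g, a subunit of the T cell receptor complex, went from 632 to 1002 CPM (1.59-fold, 1.46 to 1.73) and Cd247, its zeta chain, from 71.7 to 167 CPM (2.33-fold, 1.84 to 2.93). Lck, the kinase of the CD4 and CD8 co-receptors, went from 95.1 to 30.9 CPM (3.08-fold lower, 2.06 to 4.75), and Tnfrsf4, the OX40 co-stimulatory receptor, from 97.5 to 40.8 CPM (2.39-fold lower).

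Of 21 genes of type 17 and cytotoxic lymphocytes 2 were higher and 5 lower. Cd163l1, a scavenger receptor of dermal γδ T cells that make interleukin 17, went from 38.2 to 116 CPM (3.03-fold, 2.25 to 4.11), and Blk, a kinase used by the same cells, from 32.0 to 81.7 CPM (2.55-fold, 1.81 to 3.61). Il17a was level at 279 and 283 CPM, with UMIs in 35 control and 33 labelled-null cells. Ccl5 went from 197 to 40.8 CPM (4.82-fold lower, 3.44 to 6.94) and Ifng from 65 to 3 UMIs, found in 20 control cells and 1 labelled-null cell (9.38-fold lower, 3.07 to 46.7). Il22 went from 198 to 3 UMIs, but 80.8% of the control UMIs lay in 1 cell.

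Of 21 class II and Langerhans genes 3 were higher and 5 lower. H2-Eb1, the beta chain of the I-E class II molecule, went from 2164 CPM (4531 UMIs in 161 cells) to 69.5 CPM (63 UMIs), 31.1-fold lower (24.3 to 40.6). The I-A chain genes H2-Aa and H2-Ab1 stood at 8155 and 10371 CPM and at 6601 and 7772 CPM, and Cd74, the invariant chain, at 18036 and 18512 CPM. Cd207, the langerin gene of Langerhans cells, went from 170 to 317 CPM (1.87-fold, 1.59 to 2.19). Ccr7, the receptor of migrating dendritic cells, went from 67.8 to 22.1 CPM and Ccl22 from 60 UMIs to 1. Of 25 macrophage genes 1 was higher and 3 lower, beside 4.52% and 7.57% of all genes of the class. Lyz2, the lysozyme gene, stood at 3341 and 3974 CPM.

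Il1b, the interleukin 1 beta gene, went from 591 to 1100 CPM (1.86-fold, 1.71 to 2.03) and Cxcl2, a neutrophil chemokine, from 536 to 1044 CPM (1.95-fold), each with UMIs in fewer than 100 cells of a library. Of 22 chemokines 7 were higher and 6 lower. Ccl8, a monocyte chemokine, went from 588 to 120 CPM (4.89-fold lower, 4.02 to 6.003), and Cxcl1 from 24 to 77 UMIs. Ccl21a, higher by UMIs, had 99.4% of them in 1 labelled-null cell.

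Most of the genes at the top of the Ptprc ranking came from single cells. S100a8, S100a9 and Retnlg, genes of neutrophils, had no UMI in the control library and 246, 216 and 55 in the labelled-null library, with 100%, 100% and 98.2% of them in 1 cell. In the other direction Acta1, Myl1, Tnnc2, Ckm, Pvalb and Tnnt3, genes of muscle fibres, had 77.6% to 91.1% of their control UMIs in 1 cell, and Jchain had 61.2%. Of the ranked 16, H2-Eb1, Hist1h2ap, AY036118 and Cxcl1 had less than 50% there. Matrix genes in this class were lower: 9 of 10 collagens and 16 of 22 glycoprotein and proteoglycan genes passed and none was higher, at most 1 of each list was an own gene, and the part of fibroblast RNA in them was not tested.

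**Figure D4:**
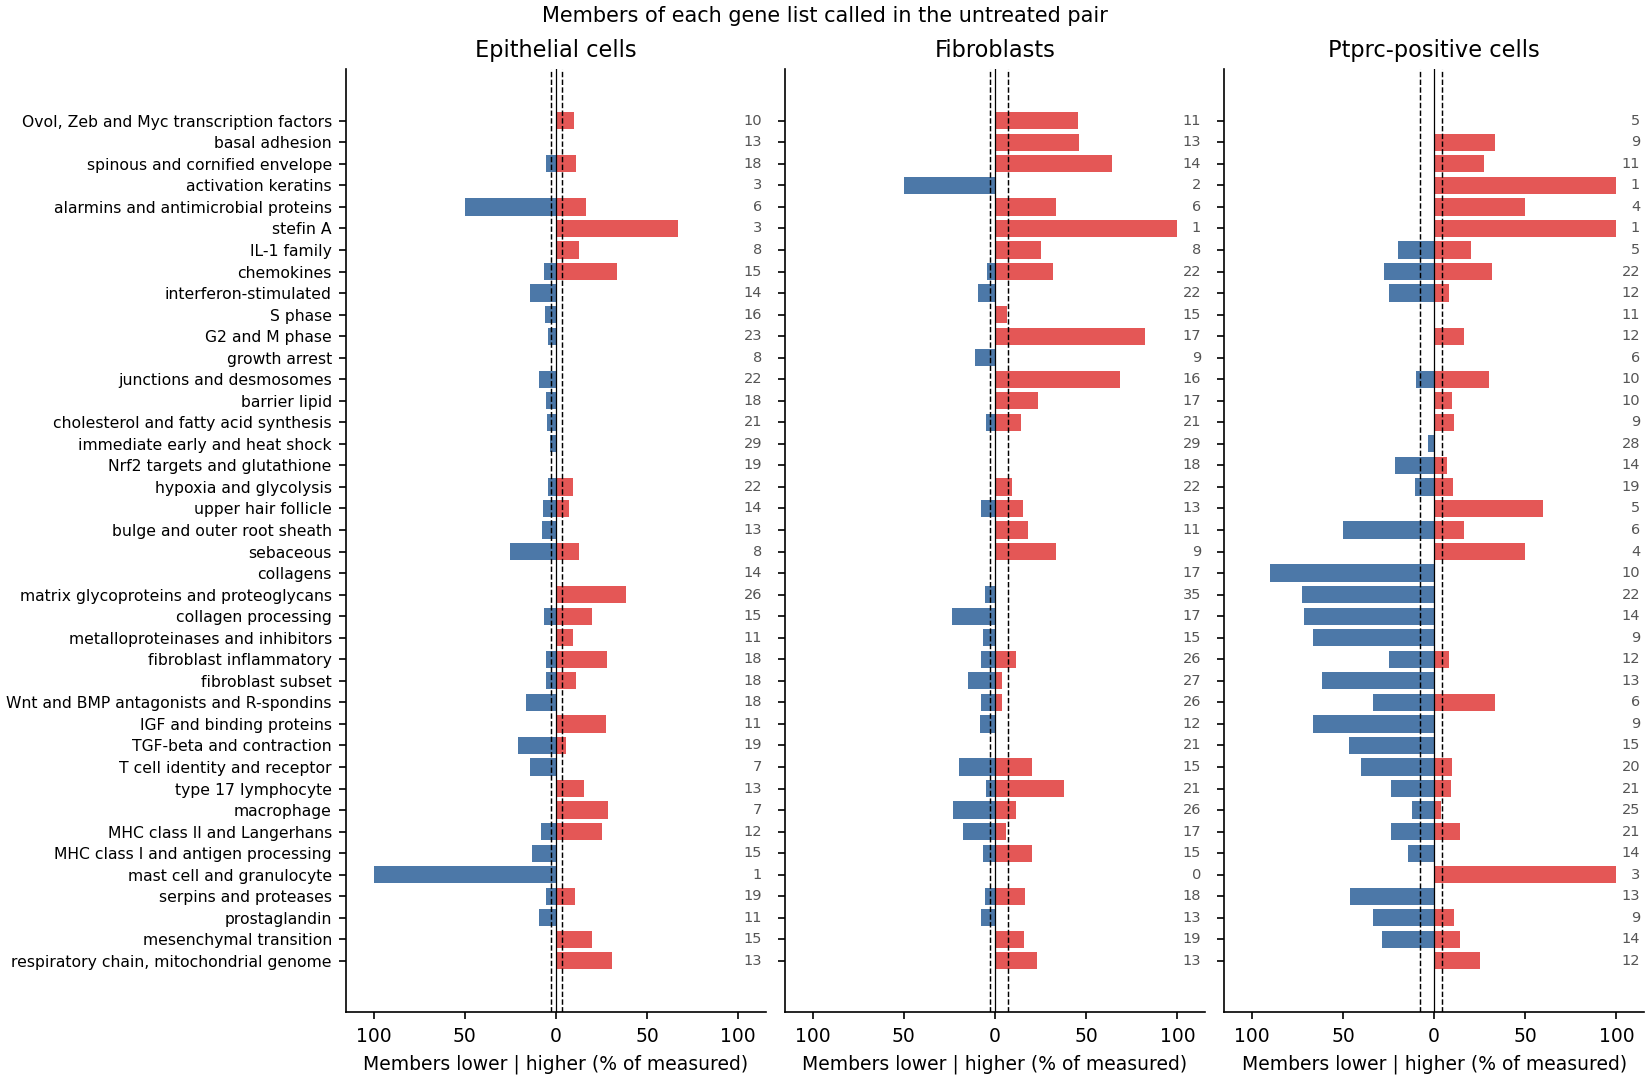
Members of each gene list higher (red, right) and lower (blue, left) in the labelled-null untreated library, as a percentage of the members measured (number at the right edge), with dashed lines at the same shares over all genes. The haemoglobin and sex-linked lists are not drawn. In epithelial cells basal adhesion, junction and barrier lipid lists stay short, while stefin A reaches far right and alarmins reach left. G2 and M phase and junction lists reach far right in fibroblasts and matrix lists far left in Ptprc cells.

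A small group of genes differed in the same direction in all 3 classes. Of 5297 genes measured in every class 50 were higher and 22 lower in the labelled-null library. Among the 10 firmest higher genes were Hist1h2ap, AY036118, Tmem181a, the predicted gene Gm10076, and 4 ribosomal protein genes or pseudogenes, Rps26-ps1, Rpl29, Rpl27-ps3 and Rps18-ps3. Rps26-ps1 stood at 202 CPM in control and 841 CPM in labelled-null epithelial cells, at 71.3 and 364 CPM in fibroblasts, and at 102 and 394 CPM in Ptprc cells. Processed pseudogenes share most of their sequence with the parent gene, so these values are uncertain as to which gene the reads came from.

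The levels of some of these genes paired the 4 libraries in a way the labels do not. In epithelial cells Rps26-ps1 stood at 1146 CPM in the control imiquimod library and at 276 CPM in the labelled-null imiquimod library, and Rpl29 at 413 and 202 CPM against 202 and 445 CPM untreated. Of the 50 higher genes 22 were lower by the rule in all 3 classes under imiquimod, and 2 were higher in all 3. Rps26-ps1 and Rpl29 were high in the labelled-null untreated and the control imiquimod library, and the same 2 libraries had the larger shares of epithelial cells. Others of the 22 were not high in the control imiquimod library. Rpl9-ps6 stood at 655 CPM in control and 1239 CPM in labelled-null epithelial cells untreated, and at 549 and 284 CPM under imiquimod.

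Among the genes lower in all 3 classes, several were highest in the control untreated library of all 4. The 10 firmest were the muscle genes Tnnc2, Acta1, Myl1, Ckm, Pvalb, Tnnt3 and Mylpf, then Tpm3-rs7, Gm10320 and Car3, a carbonic anhydrase of fat and muscle. Acta1, skeletal actin, stood at 91.6 and 8.70 CPM in epithelial cells, 199 and 21.2 CPM in fibroblasts, and 507 and 1.10 CPM in Ptprc cells. As given above, most control UMIs of Acta1, Tnnc2, Myl1, Ckm, Pvalb and Tnnt3 in Ptprc cells lay in a single cell for each gene. In the imiquimod libraries Acta1 stood at 1.67 and 0.865 CPM in epithelial cells. Tpm3-rs7 stood at 44.5 CPM in control and 8.29 CPM in labelled-null epithelial cells, and H2-Eb1 and H2-T22 were among the other genes of this group.

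**Figure D5:**
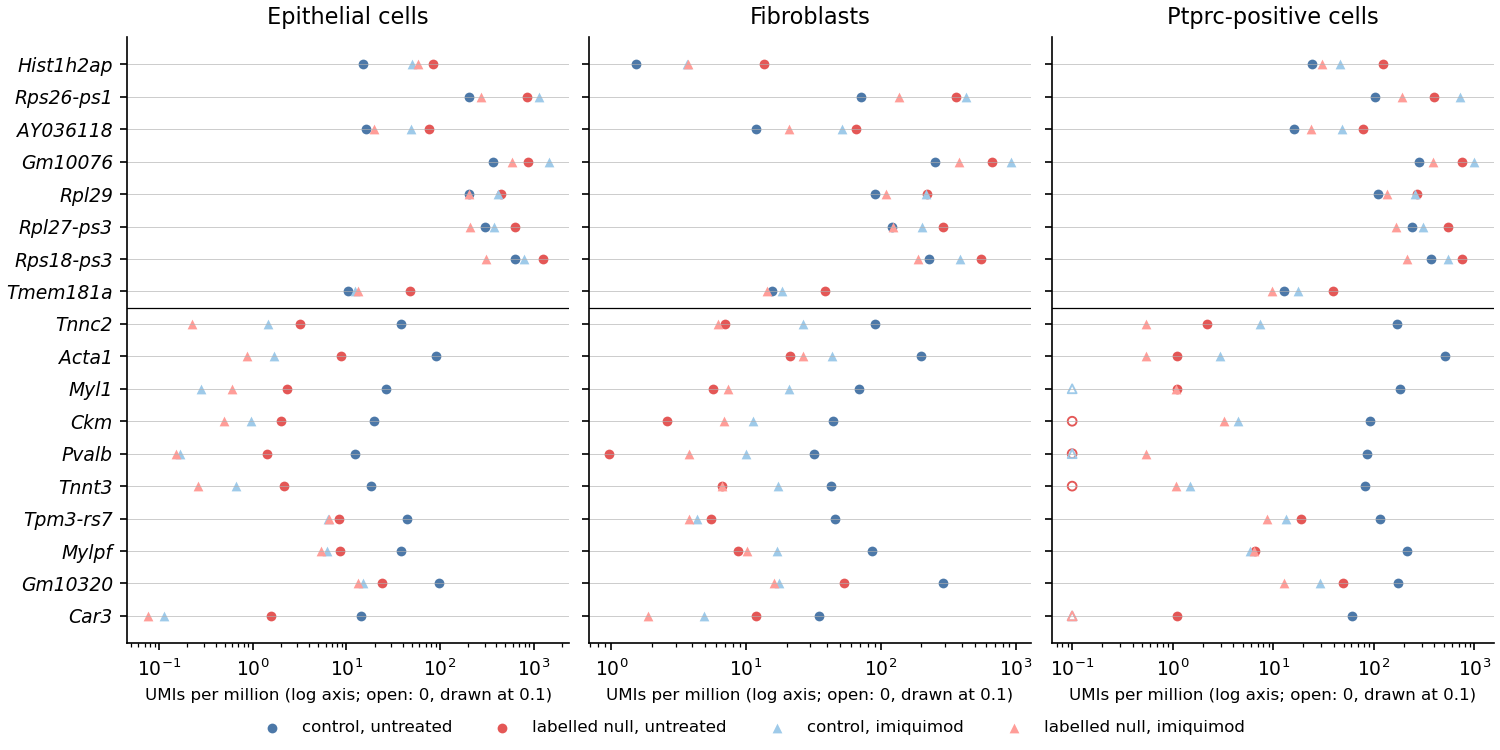
CPM (log axis) of 8 of the 10 firmest genes higher (above the line) and the 10 firmest lower (below it) in all 3 classes of the labelled-null untreated library, in each of the 4 libraries; open symbols stand for 0. Rps26-ps1 and Rpl29 are high in the labelled-null untreated and the control imiquimod library, and the muscle genes are highest in the control untreated library.

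Side by side with the imiquimod libraries, many genes higher untreated in epithelial cells and fibroblasts differed the other way. Genes lower untreated went both ways. Of the 365 genes higher in untreated labelled-null epithelial cells, 355 were measured under imiquimod, where 67 were higher, 132 lower and 156 neither. Of the 277 lower genes 253 were measured, of which 73 were lower and 66 higher. Far more genes differed in that pair of libraries, 2628 higher and 2240 lower of 11761 in epithelial cells (22.3% and 19.0%), 1261 and 2709 of 11721 in fibroblasts (10.8% and 23.1%), and 770 and 425 of 5090 in Ptprc cells (15.1% and 8.35%). In fibroblasts 78 of 723 genes higher untreated and measured under imiquimod were higher there and 375 lower. Of 242 fibroblast genes lower untreated and measured there, 77 were lower and 62 higher.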

How the data were processed

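Cells of mouse back skin had been sorted and captured with the Chromium Single Cell 3′ v2 chemistry, per the labels' protocols, 1 library per condition, so groups were taken from the labels through the barcode suffix. The deposited values are UMI counts per gene and cell that the authors made with Cell Ranger 2.1.0 on mm10, per the submitters' processing notes; the sources used here do not state whether counting used strand. The 27998 genes and 23455 barcodes were read with Python 3.11.15, numpy 2.4.6, scipy 1.17.1 and pandas 2.3.3. Counts were summed per class and library and divided by the class total, with exact Poisson intervals for levels, exact binomial (Clopper-Pearson) intervals for shares, and exact conditional binomial intervals for ratios. PCR duplicates were removed by UMI, but cells of 1 library are not replicates, so no p-value was computed. Kept cells had at least 1449 UMIs in the untreated libraries. Gene lists (42 lists, 747 genes) and members were chosen with earlier results of these data known. A gene at 0 was compared with a floor of 3 counts.

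Called genes were ranked by the interval bound nearest to a ratio of 1. Left out of the ranking were the 9 class genes, Xist and Y-linked genes, haemoglobin, ribosomal protein and mitochondrial genes, unnamed gene models and genes that were not the class's own. Named were the first 12 in each direction in epithelial cells, 10 in fibroblasts and 8 in Ptprc cells, up to 3 called members of each list, and the 10 firmest genes of all 3 classes. Of the genes so chosen 2 are not reported here. Other genes named as examples were chosen after their values were seen. Medians of log2 ratios used 0.5 added counts. Doublets were kept; scanpy 1.11.5's Scrublet, at a common score of 0.25 set after its automatic threshold had marked 6 cells of the labelled-null library, marked 120 control and 78 labelled-null cells. Gene positions came from GENCODE M21 and promoter windows from RefSeq; Ovol1's window and those of 1 chromosome are not used here. The ratio code was tested on simulated counts. Alternatives were a stricter cell filter, doublets left out, TMM scaling (edgeR 4.0.16 in R 4.3.3), equal weight per cell, thinning to 1000 UMIs, other count minimums and folds, a class margin and parts of each class. Leaving out the top cell of each library was added after seeing the data.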

Additional observations from a re-analysis of the deposited data

Results flagged for a closer look

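Among the ranked genes reported here, with 1 library per condition, 9 ratios of labelled null over control passed the rule in one direction in untreated skin and in the other under imiquimod, and each such difference between the treatments was not tested. They are a subset, since 132 of the higher and 66 of the lower genes in epithelial cells, 375 and 62 in fibroblasts, and 54 and 60 in Ptprc cells passed in the other direction under imiquimod. In epithelial cells the ratios untreated and under imiquimod were 0.419 and 14.2 for Akr1c18 and 0.132 and 56.6 for Akr1c19, neighbouring reductase genes. The ratios were 0.356 and 8.31 for Lcn2. The other direction was seen for AY036118 at 4.67 and 0.406, Dancr at 6.02 and 0.510, H2-Q10 at 3.29 and 0.213, and RP23-152B12.3 at 4.35 and 0.606. AY036118 also stood at 5.53 and 0.404 in fibroblasts and at 4.76 and 0.487 in Ptprc cells.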

How the results depend on the processing

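No paired analysis was possible because each condition had 1 library, and leaving out a replicate was not possible for the same reason. The causes of the changes below were not tested. Against 365 higher and 277 lower genes in epithelial cells, thinning to 1000 UMIs per cell gave 191 and 168 over fewer measured genes (6679 in place of 10976), of which 100 and 36 were among those 365 and 277 (179 and 100 of those called in fibroblasts, 40 and 51 in Ptprc cells). A minimum of 200 UMIs gave 160 and 106, a fold of 2 gave 143 and 77, and TMM scaling gave 431 and 210. In fibroblasts (860 and 332) thinning, the minimum and the fold gave 315 higher, 384 and 170, and 317 and 116, and the class margin of 4 gave 517 and 594. In Ptprc cells (256 and 429) they gave 73 and 68, 73 and 156, and 72 and 228, a minimum of 20 UMIs gave 396 higher, the margin 261 lower, and cells with Cd3 UMIs 155 and 237. The Ovol1 ratio in epithelial cells was 1.73 with equal weight per cell and 2.23 after thinning, and in fibroblasts 2.53 under the margin. The stricter filter gave 27.9% and 48.6% epithelial cells and 65.5% and 47.8% fibroblasts.

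Ratios of labelled null over control that changed sides of 1 were these. Ccl21a in Ptprc cells was 0.128 with the stricter filter, 0.725 in cells with Cd3 UMIs and 0.257 without the top cells, and in fibroblasts 1.82 without endothelial, mural or Schwann UMIs. In Ptprc cells Ccl5 was 3.80 and Cd247 0.962 without Cd3 UMIs, Cxcl2 0.0596 with them, and Jchain 3.45 without doublets. In epithelial cells Cidea was 1.35 under the margin and 2.93 on the suprabasal side, Elovl3 1.05 and 7.24, Scd3 1.27 with the stricter filter and 1.51 under the margin, and Erap1 1.19 thinned and 1.03 on the suprabasal side. There Lcn2 was 1.53 and S100a8 2.79, and Hba-a1 was 0.719 on the basal side and 0.636 without the top cell. Depth limits the Ptprc class most, with 906156 UMIs in the labelled-null library.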
